A study of Homo sapiens with 12 samples.

Results

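The cytosolic heat shock proteins examined here are the products of 10 genes: HSPA1A, HSPA1B, HSPA8, HSPA4, HSPH1, HSP90AA1, HSP90AB1, DNAJB1, DNAJA1, and BAG3. They were picked by gene symbol with earlier results of these data known, and make up 10 of the 60708 genes in each count table. All 10 had enough counts to be tested in both comparisons. After 24 h of OA or TN, every one of them had a lower mean level than in DMSO-treated cells, except that scaling to ACTB turned DNAJB1 in both comparisons and BAG3 with OA, and none was called higher. HSPA1B and HSPA8 fell under both stressors, and HSPA4, HSP90AA1, and DNAJA1 fell under TN. HSPA1A, HSPH1, HSP90AB1, DNAJB1, and BAG3 passed the main test under neither. With the replicate number as a block in the fit, 7 members passed with OA, beside 15.0% of all tested genes called lower. They were HSPA1B, HSPA8, HSPA4, HSPH1, HSP90AA1, HSP90AB1, and DNAJA1. With TN, 9 members passed, beside 15.3%, all but DNAJB1. When GC offsets, chosen after the data were seen, were added to the block, DNAJB1 passed in both. That fit called 1841 of 14681 tested genes lower with OA and 2783 of 14432 with TN.

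The libraries came from HCT116, a human colorectal carcinoma cell line labelled as wild type. Cells received oligomycin A (OA), which inhibits the mitochondrial ATP synthase, or tunicamycin (TN), which blocks N-glycosylation and thereby loads the ER with unfolded proteins. The labels give 5 µg/mL and 24 h for each stressor, and the study's methods state another dose for OA. Each stressor had 3 treated and 3 DMSO-treated libraries of its own (OA controls and TN controls), numbered 1 to 3 as biological replicates, which makes 12 libraries.

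As background, heat shock proteins hold unfolded or newly made proteins so that they fold instead of aggregating. HSP70 proteins bind and release such clients in a cycle driven by ATP. J proteins deliver clients to HSP70, HSP110 proteins exchange its nucleotide, and HSP90 takes over partly folded clients such as kinases and steroid receptors. When unfolded proteins accumulate in the cytosol, the transcription factor HSF1 is released, forms trimers, and binds heat shock elements, which are inverted repeats of GAA units, in front of these genes. Unfolded proteins in the ER are instead sensed by the unfolded protein response, whose best known chaperone target is HSPA5. The series therefore allows the mRNAs of the cytosolic chaperones to be read under a stressor of mitochondria and a stressor of the ER.

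The promoter sequences are shown because these genes are textbook targets of HSF1. All 10 members matched the RefSeq promoter table (build GRCh38.p14), which gives 250 bases before and 50 after each start site, with 15 windows in all. Heat shock elements were searched on both strands as GAANNTTC or TTCNNGAA, which hold 2 units, and as the same letters extended by NN and another inverted unit, which contain the shorter form. The shorter form was found in 7 of 10 members, HSPA1A, HSPA1B, HSPA8, HSP90AA1, HSP90AB1, DNAJB1, and DNAJA1. Counted by window, it was in 8 of the 15 and in 13.5% of all 35116 windows. The longer form was found in 4 members, HSPA8, HSP90AA1, HSP90AB1, and DNAJA1, or 4 of the 15 windows, and in 0.49% of all windows. The windows of HSPA4, HSPH1, and BAG3 held neither form. A match of these letters is a description of the window and does not show that a factor binds there. The 250 bases before the start site are printed for 5 members in the direction of transcription, with the matched letters in capitals. Windows were taken from chr6:31827488-31827737 on the plus strand for HSPA1B, chr11:123062137-123062386 on the minus strand for HSPA8, and chr14:102087045-102087294 on the minus strand for HSP90AA1. Those of HSP90AB1 and DNAJB1 were chr6:44247693-44247942 on the plus strand and chr19:14518398-14518647 on the minus strand. For the last 3 genes, the table holds several start sites, and the window with matched letters before its start site is the one shown.
HSPA1B: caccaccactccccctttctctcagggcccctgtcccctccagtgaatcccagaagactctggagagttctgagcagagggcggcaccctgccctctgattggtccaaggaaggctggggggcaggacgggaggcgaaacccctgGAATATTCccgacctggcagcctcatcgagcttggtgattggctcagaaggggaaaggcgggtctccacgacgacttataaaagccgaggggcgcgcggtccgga
HSPA8: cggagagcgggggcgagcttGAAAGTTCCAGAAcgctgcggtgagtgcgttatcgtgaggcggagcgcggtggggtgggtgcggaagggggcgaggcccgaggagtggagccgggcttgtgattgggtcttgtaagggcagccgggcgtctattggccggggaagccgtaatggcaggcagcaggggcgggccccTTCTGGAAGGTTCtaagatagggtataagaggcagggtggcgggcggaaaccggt
HSP90AA1: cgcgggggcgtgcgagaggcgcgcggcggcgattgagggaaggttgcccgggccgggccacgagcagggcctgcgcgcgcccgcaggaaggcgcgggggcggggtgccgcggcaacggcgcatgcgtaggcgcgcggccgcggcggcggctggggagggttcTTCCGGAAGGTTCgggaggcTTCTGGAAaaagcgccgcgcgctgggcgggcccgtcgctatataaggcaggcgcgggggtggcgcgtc
HSP90AB1: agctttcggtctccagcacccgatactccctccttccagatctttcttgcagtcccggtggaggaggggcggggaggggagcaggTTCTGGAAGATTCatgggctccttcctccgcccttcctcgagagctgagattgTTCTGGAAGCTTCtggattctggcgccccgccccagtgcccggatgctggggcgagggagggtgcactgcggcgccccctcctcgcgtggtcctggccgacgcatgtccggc
DNAJB1: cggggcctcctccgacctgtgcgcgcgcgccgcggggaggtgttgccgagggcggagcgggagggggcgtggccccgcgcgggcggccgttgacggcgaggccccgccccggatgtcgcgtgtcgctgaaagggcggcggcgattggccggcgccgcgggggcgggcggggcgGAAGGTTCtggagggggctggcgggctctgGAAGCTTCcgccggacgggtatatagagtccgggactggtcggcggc

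In these windows, the single element of HSPA1B began at position -105 relative to the start site. HSPA8 had 2 elements of the longer form, of which the distal one began at position -230. In HSP90AA1, matched letters began at positions -88 to -68, and in HSP90AB1 those of 2 elements of the longer form began at positions -165 to -107. DNAJB1 had 2 elements of the shorter form, at positions -77 and -47, and none of the longer form.

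Library totals ranged from 9884124 to 24983573 counts. The noncoding RNA RN7SL1 took 6.02% to 17.9% of them, most in OA replicate 2, followed by TN replicate 1 with 13.3%. OA replicate 2 and TN replicate 1 also had the lowest TMM factors, 0.732 and 0.796. The epithelial markers EPCAM, CDH1, KRT8, KRT18, and KRT19 were expressed in every library, whereas VIL1, another gene of colonic epithelium, was at 0 in 8 of 12 libraries and reached no more than 0.29 CPM. The 8 markers of leukocytes, fibroblasts, and endothelial cells summed to 1.60–2.84 CPM in the OA controls and 5.16–9.40 CPM in the OA libraries. In the TN controls they summed to 2.25–4.47 CPM and in the TN libraries to 2.03–3.43 CPM. Of these markers, CD3E was at 0 in all 12 libraries and PTPRC and DCN in 11 each, and COL1A1 ranged from 1.16 to 9.04 CPM. The part of these markers in the results was not tested. In bulk RNA, fewer cells of a type and less RNA per cell cannot be told apart.

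The 10 mRNAs covered a wide range of levels in DMSO-treated cells. Levels between genes are compared here as normalised CPM (CPM after TMM scaling) per kb of the canonical transcript. This scaling does not correct for stretches of 50 bases that also occur elsewhere. They make up 75.1% of HSPA1A, 71.6% of HSPA1B, 20.2% to 23.4% of HSPA8, HSP90AA1, and HSP90AB1, and at most 5.6% of the others. In the OA controls, HSPA8, the constitutive HSP70 also called HSC70, was highest at 2684 ± 229 (SD, n = 3), followed by HSP90AB1 at 1362 ± 127. HSP90AA1 followed at 232 ± 75.4. DNAJA1, DNAJB1, and HSPA4 came next with 127 ± 20.5, 114 ± 16.9, and 104 ± 6.89, and these 3 neighbours did not differ beyond their spread. HSPA1B was at 71.4 ± 8.57, HSPH1 at 27.9 ± 8.77, BAG3 at 13.4 ± 2.01, and HSPA1A at 0.502 ± 0.0833. The DMSO libraries of TN gave the same order of the 10 genes, with DNAJA1 at 169 ± 21.3 and separate from DNAJB1 at 114 ± 8.85, while DNAJB1 and HSPA4 at 110 ± 3.65 were within their spread of each other. In treated cells, DNAJB1 took the third place, at 90.2 ± 24.9 with OA and 95.6 ± 23.6 with TN, above HSP90AA1 at 62.3 ± 38.0 and 64.4 ± 18.8, though within the spread of these values.

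**Figure D1:**
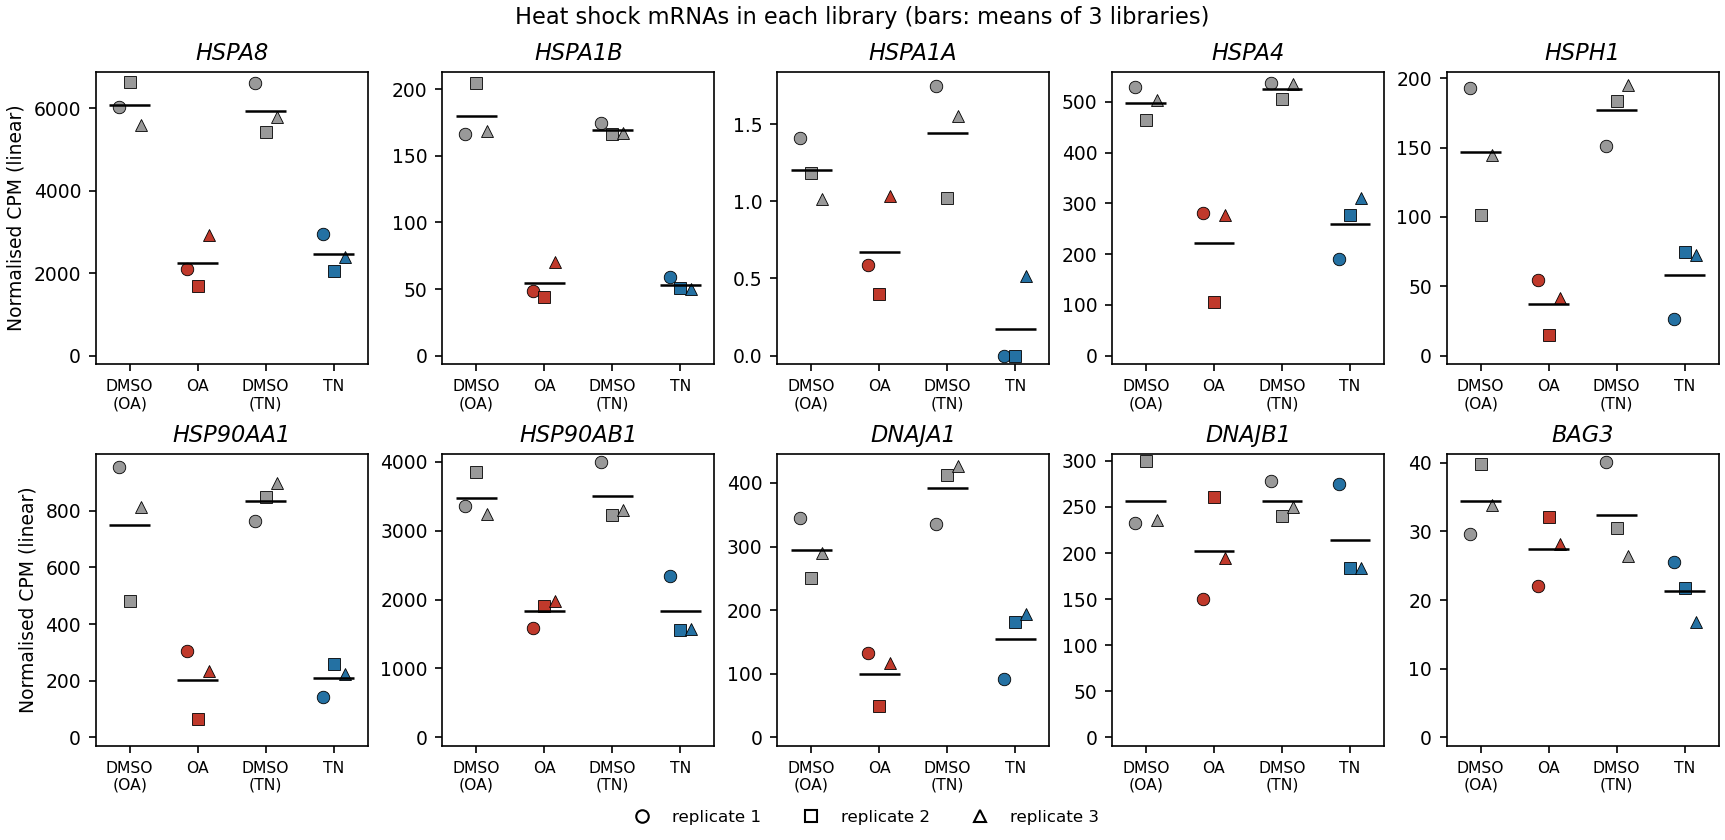
Normalised CPM of each heat shock mRNA on a linear axis from 0, by library, with 1 panel per gene, marker shapes for replicate numbers, and horizontal bars for the means of 3 libraries. Treated libraries (OA red, TN blue) lie below all DMSO libraries (grey) for 7 of 10 genes with OA and for 9 of 10 with TN. Of all tested genes, 15.5% with OA and 16.8% with TN do so. DNAJB1 overlaps in both.

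HSPA8 folds nascent proteins and strips clathrin coats in unstressed cells. Its gene lies on chr11:123057489-123063230 on the minus strand, with 9 exons, and hosts the small nucleolar RNAs SNORD14C, SNORD14D, and SNORD14E. Of the 4 genes that overlap HSPA8, 1 lies on the opposite strand, and the strand setting of the counts is unknown. HSPA8 stood at 6016, 6622, and 5589 normalised CPM in the OA controls and at 2088, 1698, and 2922 in the OA libraries. All 3 OA libraries were below all DMSO libraries. HSPA8 fell by 1.44 on the log2 scale with OA (SE 0.27, adjusted p = 0.0317), which is 2.72-fold. With TN it went from 6602, 5411, and 5795 to 2943, 2058, and 2394 normalised CPM. Again the groups did not overlap, and HSPA8 fell by 1.27 on the log2 scale (SE 0.21, adjusted p = 0.0155), or 2.41-fold. HSPA8 alone held 0.655% ± 0.0249 of all counts in the OA controls and 0.214% ± 0.0822 in the OA libraries (SD, n = 3 each). The corresponding shares for TN were 0.625% ± 0.0319 and 0.231% ± 0.0134.

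HSPA1A and HSPA1B encode the stress-inducible HSP70, and their proteins are nearly the same. Both are genes of a single exon on the plus strand, at chr6:31815543-31817946 and chr6:31827738-31830254. Of all stretches of 50 bases in the HSPA1A transcript, 75.1% also occur in HSPA1B, and 71.6% of those of HSPA1B occur in HSPA1A. The level of each copy is therefore uncertain. HSPA1B had 166, 205, and 169 normalised CPM in the OA controls and 48.6, 44.1, and 70.0 in the OA libraries. The groups were apart by 2.37-fold between the lowest DMSO and the highest OA library, and HSPA1B fell by 1.73 on the log2 scale (SE 0.264, adjusted p = 0.0219). For TN, the DMSO libraries had 175, 166, and 167 normalised CPM and the TN libraries 59.2, 50.6, and 50.3. Here too the groups were apart, and HSPA1B fell by 1.67 (SE 0.188, adjusted p = 0.00585), or 3.18-fold. HSPA1A had from 18 to 32 counts in the 6 DMSO libraries, 8, 4, and 10 in the OA libraries, and 0, 0, and 6 in the TN libraries. At this depth, its log2 fold changes of -0.84 (SE 0.541, adjusted p = 0.387) with OA and -2.92 (SE 1.0, adjusted p = 0.125) with TN did not pass the main test, and the second depends on the prior count. With the replicate block, the value with TN was -3.20 and passed, at an adjusted p of 0.0461. The estimate with TN rests on the counts of TN replicate 3, without which no count remained in the TN group and the fitted value was -7.35 (adjusted p = 0.0667). Without TN replicate 1 or 2 it was -2.38 and -2.37. With both copies summed as 1 gene, the log2 fold change was -1.72 (SE 0.265, adjusted p = 0.0219) with OA and -1.68 (SE 0.188, adjusted p = 0.00557) with TN.

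HSPA4 and HSPH1 are HSP110 proteins, large relatives of HSP70 that act as its nucleotide exchange factors. HSPA4 (chr5:133052013-133106449, plus strand) had 528, 463, and 504 normalised CPM in the OA controls and 282, 106, and 277 in the OA libraries. OA replicate 2 was far below the other OA libraries, and the log2 fold change was -1.17 (SE 0.368, adjusted p = 0.108). With the replicate number as a block, the adjusted p was 0.00707. With TN, HSPA4 went from 537, 506, and 535 to 189, 278, and 311 normalised CPM, without overlap, and fell by 1.02 (SE 0.23, adjusted p = 0.0415). This call was lost with DESeq2 size factors (0.0538), total counts (0.0521), ACTB scaling (0.264), TMM without 7SL, 7SK, and mitochondrial RNAs (0.0601), and 1 fit of 12 libraries (0.103).

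HSPH1 (chr13:31134973-31162388, minus strand) had 193, 101, and 145 normalised CPM in the OA controls and 54.2, 14.7, and 41.7 in the OA libraries. For TN it had 151, 184, and 195 normalised CPM in DMSO and 26.7, 74.7, and 72.6 in TN. The groups did not overlap in either comparison, with OA replicate 2 and TN replicate 1 the lowest of their groups. The difference with OA was -1.99 on the log2 scale (SE 0.476, adjusted p = 0.0563), and with TN the difference was -1.61 (SE 0.39, adjusted p = 0.0522). Neither passed the threshold of 0.05, whereas with the replicate block the adjusted p was 0.000531 with OA and 0.0019 with TN.

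HSP90AA1 and HSP90AB1 encode the inducible and the constitutive HSP90 of the cytosol. HSP90AA1 (chr14:102080742-102139699, minus strand) had 955, 480, and 812 normalised CPM in the OA controls and 304, 65.4, and 234 in the OA libraries. OA replicate 2 was lowest among treated and DMSO replicate 2 lowest among untreated libraries, and the difference of -1.90 (SE 0.533) did not pass the test at an adjusted p of 0.0819 but did with the replicate block, at 0.000764. With TN, HSP90AA1 went from 762, 847, and 898 to 142, 260, and 223 normalised CPM. The lowest DMSO library was 2.93-fold above the highest TN library, and HSP90AA1 fell by 2.01 (SE 0.264, adjusted p = 0.0078), or 4.02-fold. The gene overlaps WDR20 on the opposite strand, and without knowledge of the strand setting of the counts, reads of the 2 genes cannot be told apart where they overlap.

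HSP90AB1 (chr6:44246166-44253888, plus strand) had 3354, 3846, and 3236 normalised CPM in the OA controls and 1592, 1905, and 1984 in the OA libraries. For TN, the DMSO libraries had 3988, 3228, and 3299 and the TN libraries 2346, 1562, and 1579. No treated library reached the lowest DMSO library in either comparison. The log2 fold changes were nearly equal, -0.93 (SE 0.222, adjusted p = 0.0562) with OA and -0.94 (SE 0.231, adjusted p = 0.0539) with TN. With the replicate block, the adjusted p values were 0.00747 and 0.00088. The value with TN also passed under the 5 settings that ended the HSPA4 call, at 0.0476, 0.00488, 0.0362, 0.0433, and 0.011. Of these 5, only total counts (adjusted p = 0.0227) and 1 fit of 12 libraries (0.00762) made the value with OA pass. The count ratio of HSP90AB1 to HSP90AA1 was 3.68 to 5.23 in the TN controls and 6.01 to 16.6 in the TN libraries (exact two-sided permutation test, p = 0.1, the smallest that 3 against 3 libraries allow). The mean ratio was 2.33-fold higher in TN libraries, and 1.55-fold without TN replicate 1. With OA, the ratio ranged from 3.51 to 8.01 in DMSO and from 5.24 to 29.1 in OA libraries, and the groups overlapped (exact two-sided permutation test, p = 0.2). Within each replicate number the OA library was higher, with 5.24 against 3.51, 29.1 against 8.01, and 8.47 against 3.99. The mean ratio was 2.76-fold higher with OA, and 1.33-fold without OA replicate 2.

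DNAJA1 and DNAJB1 are J proteins, which bring clients to HSP70. DNAJA1, a type I J protein, lies on chr9:33025273-33039907 on the plus strand. It had 345, 251, and 290 normalised CPM in the OA controls and 132, 49.8, and 117 in the OA libraries, with a log2 fold change of -1.57 (SE 0.372, adjusted p = 0.0551, and 0.0014 with the replicate block). With TN it went from 335, 413, and 427 to 91.1, 181, and 193 normalised CPM. The groups were apart, and DNAJA1 fell by 1.34 (SE 0.309, adjusted p = 0.0453). The same 5 settings as for HSPA4 ended this call, at 0.0541, 0.0628, 0.214, 0.0584, and 0.0598. With DESeq2 size factors, total counts, and ACTB scaling, the log2 fold change of DNAJA1 was -1.31, -1.44, and -0.97.

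DNAJB1, the J protein known as HSP40 and a feedback partner of HSF1, lies on chr19:14514769-14560391 on the minus strand. It overlaps TECR and MIR639, which lie on the opposite strand, and here too reads cannot be told apart where the genes overlap, since the strand setting is unknown. DNAJB1 had 233, 300, and 236 normalised CPM in the OA controls and 150, 261, and 195 in the OA libraries. With TN it had 278, 240, and 251 normalised CPM in DMSO and 275, 183, and 184 in TN. In each comparison 1 treated library, OA replicate 2 or TN replicate 1, lay among the DMSO libraries. Its log2 fold change was -0.34 (95% confidence interval -0.96 to 0.27, adjusted p = 0.475) with OA and -0.26 (-0.79 to 0.27, adjusted p = 0.542) with TN. It was not called with the replicate block either, at an adjusted p of 0.177 and 0.192. With GC offsets per library and the block together, chosen after the data were seen, it was called lower in both. Its values were -0.49 with OA (adjusted p = 0.0419) and -0.35 with TN (adjusted p = 0.0136). That fit called 1841 of 14681 tested genes lower with OA and 2783 of 14432 with TN. With the offsets alone, DNAJB1 was called in neither (adjusted p = 0.0658 and 0.0868). DNAJB1 was also called lower with TN in the fit without both libraries numbered 1 (-0.35, adjusted p = 0.000451). This fit, also added after the data were seen, called 3302 of 14639 tested genes lower. Relative to HSPA8, DNAJB1 counts were 0.0421 ± 0.00331 in the OA controls and 0.0975 ± 0.0488 in the OA libraries, and 0.0432 ± 0.00109 and 0.0865 ± 0.00861 in those of TN (SD, n = 3 each). Both ratios were higher in every treated library than in any DMSO library (exact two-sided permutation test, p = 0.1 for each, the smallest possible). The mean ratio of DNAJB1 to HSPA8 was 2.32-fold higher with OA, and 1.65-fold without OA replicate 2.

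BAG3 links HSP70 to selective autophagy and lies on chr10:119651380-119677819 on the plus strand. It had 29.6, 39.8, and 33.8 normalised CPM in the OA controls and 22.0, 32.2, and 28.2 in the OA libraries. The groups overlapped, with a log2 fold change of -0.33 (95% confidence interval -0.93 to 0.27, adjusted p = 0.484, and 0.209 with the replicate block). With TN, BAG3 went from 40.1, 30.4, and 26.4 to 25.5, 21.7, and 16.9 normalised CPM. Here the highest TN library was just below the lowest DMSO library, by 1.03-fold, and the log2 fold change was -0.60 (-1.20 to 0.01, adjusted p = 0.21). With the replicate block it passed the test, at an adjusted p of 0.026.

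**Figure D2:**
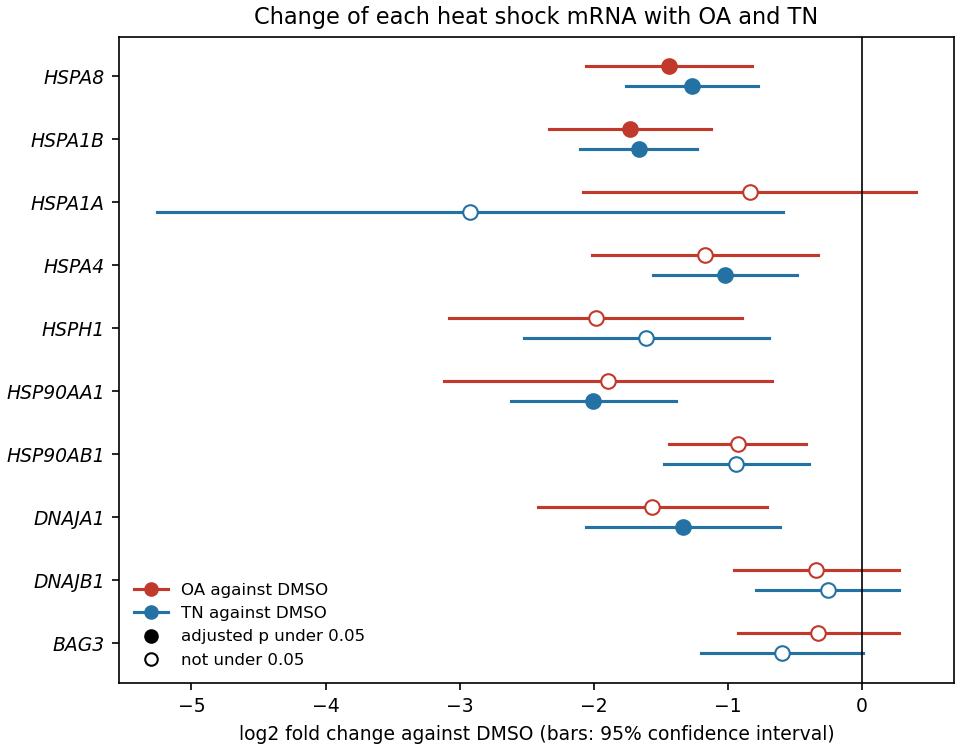
The log2 fold change of each heat shock mRNA against DMSO, with 95% confidence intervals, for OA (red) and TN (blue), where filled points have an adjusted p under 0.05. All points lie below 0 (under scaling to ACTB, those of DNAJB1 and the OA point of BAG3 do not). For OA 2 are filled and for TN 5, when 1.72% and 3.34% of all tested genes were called lower. The DNAJB1 intervals include 0 for both.

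Counted over the list, 2 of 10 members were called lower with OA, when 1.72% of the 14681 tested genes were, and 5 of 10 with TN, when 3.34% of 14432 were. No member was called higher in either, against 2.76% and 3.65% of all tested genes. With the replicate block, 7 members were called lower with OA and 9 with TN, against 15.0% and 15.3% of all tested genes. All treated libraries were below all DMSO libraries for 7 members with OA and 9 with TN, when 15.5% and 16.8% of all tested genes met this and, among genes of at least 10 CPM, 18.3% and 20.5%. In both comparisons, 7 members met it, beside 10.2% of the 14071 genes tested in both. Fold changes were below 0 for all 10 members in both comparisons (with ACTB scaling for 8 with OA and 9 with TN) and for 51.2% and 51.9% of all tested genes. The median log2 fold change of the members was -1.31 with OA and -1.30 with TN, beside -0.02 and -0.03 over all tested genes.

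The calls with the main test depended on single libraries. With OA, both calls were lost without any one of the 3 DMSO libraries or without OA replicate 3. The adjusted p of HSPA1B was then 0.0942, 0.103, 0.133, and 0.0518 without DMSO replicate 1, 2, and 3 and OA replicate 3, and that of HSPA8 0.127, 0.125, 0.158, and 0.0596. The log2 fold changes in these fits were between -1.96 and -1.58 for HSPA1B and between -1.69 and -1.33 for HSPA8, and 5, 3, 3, and 91 genes were called in all. Leaving out OA replicate 1 or 2 gave 5 and 7 members called lower, when 2.88% and 2.37% of all tested genes were called lower in those fits. With TN, the HSPA1B call held without each library in turn. That of HSP90AA1 was lost without DMSO replicate 2 or 3 or TN replicate 3, at 0.0557, 0.0587, and 0.0513, and that of HSPA8 without DMSO replicate 2 or 3 or TN replicate 2 or 3, at 0.0562, 0.0695, 0.069, and 0.0691. The HSPA4 and DNAJA1 calls held only without TN replicate 1, at 0.0155 and 0.00757, and without any other library rose to between 0.104 and 0.189 and between 0.108 and 0.188. Over these fits with TN, the log2 fold changes ranged from -2.20 to -1.74 for HSP90AA1, from -1.37 to -1.16 for HSPA8, from -1.19 to -0.79 for HSPA4, and from -1.53 to -1.02 for DNAJA1. Between 151 and 473 genes were called in all without a library other than TN replicate 1. Without TN replicate 1, 7 members were called lower, beside 8.54% of all tested genes.

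The share of each library on these mRNAs does not rest on TMM scaling. The 10 members together took 1.31%, 1.25%, and 1.23% of the counts in the OA controls and 0.519%, 0.306%, and 0.574% in the OA libraries. The share was 2.71-fold lower in OA-treated cells on average (1.26% ± 0.0394 against 0.466% ± 0.142, SD, n = 3 each). For TN, the share was 1.29%, 1.21%, and 1.24% in DMSO and 0.485%, 0.491%, and 0.509% in TN, 2.52-fold lower (1.25% ± 0.0356 against 0.495% ± 0.0126). Each difference had p = 0.1 by the exact two-sided permutation test, the smallest that 3 against 3 libraries allow. HSPA8 made up 40.6% to 53.8% of the members' counts over the 12 libraries, and without it the remaining 9 members were 2.41-fold lower with OA and 2.35-fold lower with TN as a share of all counts.

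**Figure D3:**
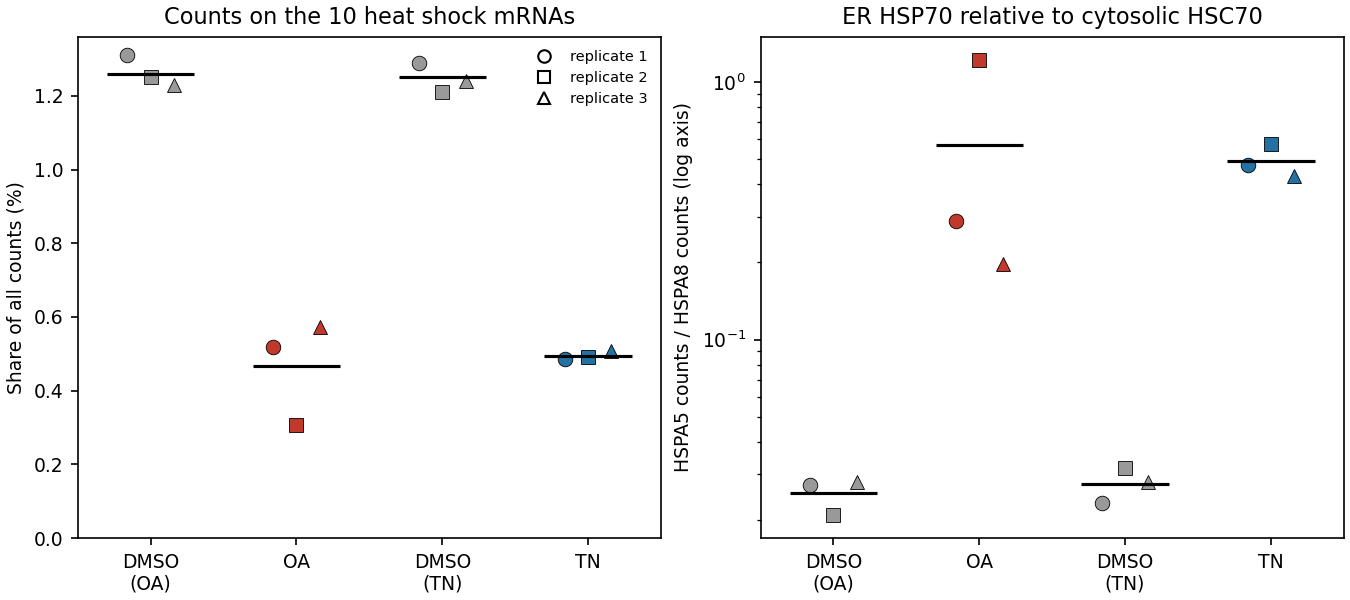
Left, the share of all counts on the 10 heat shock mRNAs by library on an axis from 0. Right, the count ratio of HSPA5 to HSPA8 by library on a log axis. Points are libraries, marker shapes are replicate numbers, and bars are means of 3. The share lies at 1.21–1.31% in the DMSO libraries and at 0.306–0.574% in treated ones, and the ratio is 0.0208–0.0317 and 0.197–1.22.

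The stressors were compared with each other by the contrast of their changes, fitted over all 12 libraries. No member differed between OA and TN, with unadjusted p values from 0.116 for HSPA1A to 0.926 for HSP90AA1 and adjusted p values of 1. The same contrast called 0 of 15429 genes with edgeR and 0 with DESeq2, and 348 genes, or 2.26%, had an unadjusted p under 0.05. The differences, written as OA minus TN, were -0.23 for HSPA8 (95% confidence interval -0.93 to 0.48), -0.13 for HSPA1B (-0.79 to 0.53), and -0.05 for HSP90AB1 (-0.64 to 0.54). They were least precise for HSPH1, at -0.44 (-1.95 to 1.07), and HSP90AA1, at 0.06 (-1.40 to 1.53), beside HSPA1A with its few counts. These intervals do not show that the stressors acted alike.

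Libraries differed in how their counts followed the GC content of transcripts, and the members range from 39.6% GC for HSPH1 to 59.8% for HSPA1A. Across 13082 genes, the deviation of OA replicate 2 from its group mean had a correlation of 0.50 with GC content, and across 13013 genes that of TN replicate 1 had 0.68. Other libraries deviated with GC content as well, and those of 1 number in the same direction where the correlation was not near 0. It was -0.69, 0.62, and -0.075 for OA controls 1 to 3 and -0.62, 0.50, and 0.039 for the OA libraries. For TN controls 1 to 3 it was 0.49, -0.34, and -0.48, and for the TN libraries 0.68, -0.57, and -0.62. The part of GC content in the likeness of same-numbered libraries was not tested. HSPH1, DNAJA1, HSPA4, and HSP90AA1 have 39.6%, 40.8%, 42.4%, and 45.2% GC. In OA replicate 2, these 4 members deviated by -1.1, -0.88, -0.93, and -1.4 on the log2 scale. DNAJB1 and BAG3, at 56.3% and 56.9% GC, deviated by 0.41 and 0.25. The order did not hold for all members. HSP90AA1 deviated more than HSPH1, which is lower in GC, and HSPA1B, at 58.8% GC, deviated by -0.27. HSPA8, at 45.7% GC, deviated by -0.36, and HSP90AB1, at 48.1%, by 0.067. In TN replicate 1, the same 4 members deviated by -0.97, -0.69, -0.42, and -0.51, and DNAJB1 and BAG3 by 0.39 and 0.28. Here HSPA1B deviated by 0.15, HSPA8 by 0.27, and HSP90AB1 by 0.39. HSPA1A, the member richest in GC, was at -0.53 and -0.72 in these 2 libraries, on 4 and 0 counts. The part of GC content in the differences was measured only through GC offsets per library, an alternative added after the data were seen. With these offsets, 7 members were called lower with OA and 8 with TN, and none higher, when 7.45% and 11.0% of all tested genes were called lower in these fits. The median of the members was then -1.15 and -1.18 on the log2 scale. Without OA replicate 2 the median was -1.10 with OA, and without TN replicate 1 it was -1.17 with TN.

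**Figure D4:**
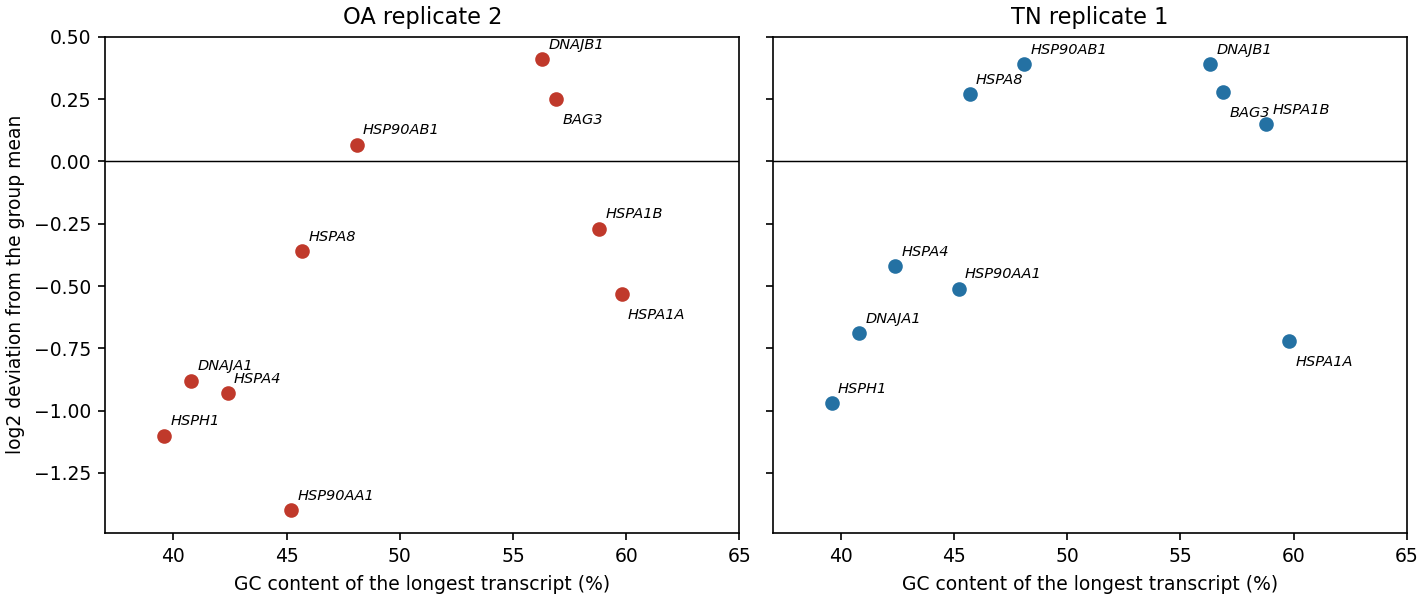
Deviation of OA replicate 2 (left) and TN replicate 1 (right) from the mean of their own group, in log2 units, against the GC content of the longest transcript of each heat shock gene, with 1 point per gene. HSPH1, DNAJA1, HSPA4, and HSP90AA1 lie below 0 in both libraries, and DNAJB1 and BAG3 above 0. HSPA8 and HSPA1B lie below 0 on the left and above 0 on the right, and HSPA1A, which lies below 0 in both, rests on 4 and 0 counts.

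The ER and mitochondrial relatives of the members took other values in the same libraries. HSPA5, the HSP70 of the ER known as BiP, went from 164, 138, and 157 normalised CPM to 603, 2079, and 576 with OA and from 154, 171, and 162 to 1405, 1184, and 1035 with TN. It rose by 2.83 on the log2 scale with OA (SE 0.518, adjusted p = 0.0301) and by 2.90 with TN (SE 0.206, adjusted p = 0.0024). OA replicate 2 was the highest by far, and without it the rise with OA was 3.86-fold (adjusted p = 0.00486) in place of 7.10-fold. The count ratio of HSPA5 to HSPA8 was 0.0273, 0.0208, and 0.028 in the OA controls and 0.289, 1.22, and 0.197 in the OA libraries. For TN, it was 0.0233, 0.0317, and 0.0279 in DMSO and 0.477, 0.575, and 0.432 in TN. In both comparisons every treated library was above every DMSO library, with mean ratios 22.5-fold and 17.9-fold higher (exact two-sided permutation test, p = 0.1 for each). Without OA replicate 2, the mean ratio with OA was 9.57-fold higher.

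The other ER counterparts were HYOU1, the ER relative of HSPH1, and HSP90B1, the ER form of HSP90. HYOU1 had 220, 273, and 244 normalised CPM in the OA controls and 479, 1958, and 562 in the OA libraries, of which OA replicate 2 was the highest by far. In the TN controls it had 232, 221, and 200, and in the TN libraries 1314, 1156, and 1295. HYOU1 rose by 2.53 with TN (SE 0.186, adjusted p = 0.0024) and had a log2 fold change of 2.02 with OA (SE 0.526, adjusted p = 0.0681, and 0.00497 with the replicate block). Without OA replicate 2, it was 2.11-fold higher with OA (adjusted p = 0.0247) in place of 4.07-fold. HSP90B1 had 394.2, 601.5, and 665.2 normalised CPM in the TN controls and 910.5, 3162, and 2904 in the TN libraries. It rose by 2.07 with TN (SE 0.47, adjusted p = 0.0424). Of the fits without 1 library, only that without TN replicate 1 kept this call (adjusted p = 0.000889). In the others the adjusted p was between 0.126 and 0.157. With OA its value was 0.20 (SE 0.412, adjusted p = 0.798). Without OA replicate 1, which had 811.5 normalised CPM beside 320.7 and 359.7, it was -0.36 (adjusted p = 0.465). The difference between the stressors had an unadjusted p of 0.0183 and an adjusted p of 1. HSPA9, the mitochondrial HSP70, had 0.26 with OA and 0.33 with TN (adjusted p = 0.504 and 0.283). TRAP1, the mitochondrial HSP90, had -0.47 and -0.61 (adjusted p = 0.319 and 0.338, and 0.113 and 0.0156 with the replicate block). The count ratio of HSPA9 to HSPA8 was 3.34-fold higher with OA and 3.11-fold higher with TN, without overlap of libraries.

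Among 18 chaperones of the ER, 2 were called higher with OA, HSPA5 and SIL1 (the latter just under the threshold), and 14 with TN. None was called lower in either, and the medians were 0.77 and 2.01. By the same test, 2.76% and 3.65% of all tested genes were called higher. The block fit called 8 of the 18 higher with OA and all 18 with TN, against 11.7% and 11.8% of all tested genes. Again, it called none of the 18 lower. Among 14 mitochondrial chaperones and proteases, HSPE1 was called lower with OA, HSPE1 and HSPD1 with TN, and none higher, with medians of -0.22 and -0.21. The main test called 1.72% and 3.34% of all tested genes lower. With the replicate block, 2 of the 14 were called lower with OA and 5 with TN. In that fit, 15.0% and 15.3% of all tested genes were called lower, so the OA count was no higher than the background. LONP1, a protease of the matrix, was the only 1 of the 14 called higher in both, beside 11.7% and 11.8% of all tested genes. HSPE1 and HSPD1 form the mitochondrial chaperonin, share a promoter, and are known HSF1 targets. HSPE1 fell by 1.72 with OA (SE 0.238, adjusted p = 0.0168) and fell by 1.57 with TN (SE 0.209, adjusted p = 0.00783).

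**Figure D5:**
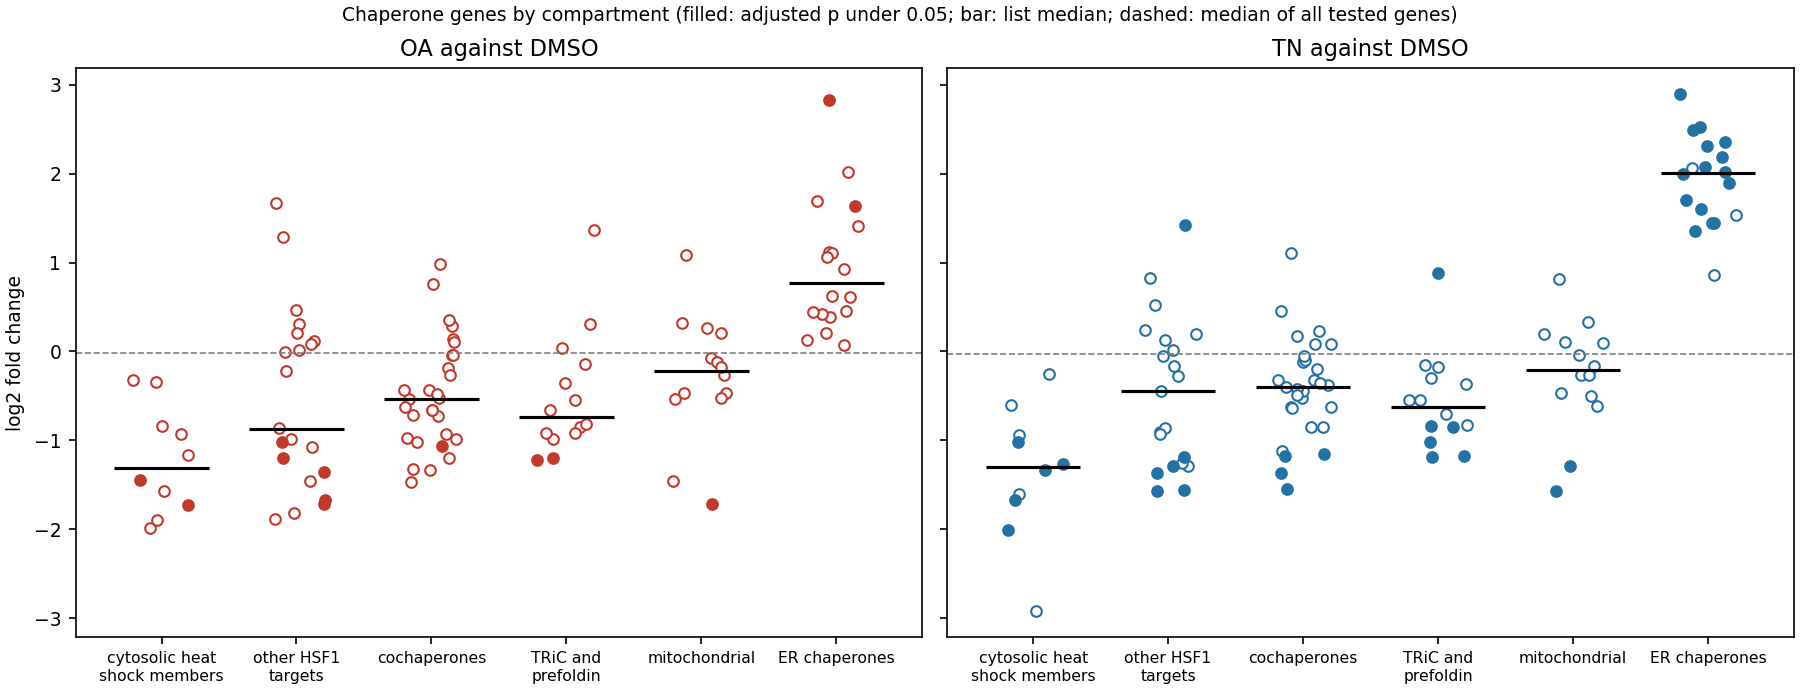
The log2 fold change of each tested gene by chaperone list, for OA (left) and TN (right), where filled points have an adjusted p under 0.05, bars are list medians, and the dashed line is the median of all tested genes. The cytosolic heat shock members have medians of -1.31 and -1.30 and the ER chaperones of 0.77 and 2.01.

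Of 23 other HSF1 targets and small heat shock proteins, 21 could be tested in each comparison, without HSPA6 and CRYAB. With OA, 5 were called lower and none higher, HSPE1, CACYBP, TCP1, RGS2, and AHSA1, and the median was -0.87. The same test called 1.72% of all tested genes lower and 2.76% higher. CACYBP, a calcyclin-binding protein, fell by 1.68 (SE 0.312, adjusted p = 0.031), and AHSA1, an activator of the HSP90 ATPase, fell by 1.02 (SE 0.232, adjusted p = 0.0494). With TN, 5 were called lower, HSPE1, RGS2, CACYBP, HSPD1, and TCP1, and 1 higher, and the median was -0.45. Here 3.34% of all tested genes were called lower and 3.65% higher. The listed gene that rose with TN was ZFAND2A, which encodes a proteasome-associated protein induced by arsenite, 2.68-fold (adjusted p = 0.0223). With OA it had a log2 fold change of 1.67 (adjusted p = 0.135, and 0.0116 with the replicate block). The fit with the block called 11 lower and 2 higher with OA and 10 lower and 3 higher with TN, with ZFAND2A among the higher in both. Over all tested genes, 15.0% and 15.3% were called lower and 11.7% and 11.8% higher in these fits, so that the higher calls were near the background share.

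Among 29 cochaperones of HSP70 and HSP90, PTGES3, the HSP90 cochaperone p23, was the only 1 called lower with OA, at -1.06 (SE 0.232, adjusted p = 0.0448). It was called with TN as well, at -1.18 (SE 0.188, adjusted p = 0.0137), together with DNAJC9, HSPA14, and FKBP5, at -1.16, -1.37, and -1.55. None was called higher by this test, and the medians were -0.54 and -0.40. Of all tested genes, the main test called 1.72% and 3.34% lower and 2.76% and 3.65% higher. Under the replicate block, 14 cochaperones were called lower with OA and 11 with TN, beside 15.0% and 15.3% of all tested genes. DNAJB2 was called higher in both and BAG6 with OA, which is a smaller share than the 11.7% and 11.8% of all tested genes. Among 14 subunits of TRiC, the chaperonin of the cytosol, and of prefoldin, TCP1 and CCT2 were called lower with OA, at -1.19 and -1.23. With TN, 5 were called lower, including TCP1 and CCT2 at -1.19 and -1.18, and PFDN2 was called higher. The medians were -0.74 and -0.63. The main-test shares of all tested genes were again 1.72% and 3.34% lower and 2.76% and 3.65% higher. Of these subunits, the block fit called 8 lower in each comparison, beside the same 15.0% and 15.3%. It called PFDN2 alone higher in both, beside 11.7% and 11.8%. Over these lists, none of the 9 calls made with OA and 8 of the 29 made with TN held without each library in turn. Those 8 were all ER chaperones, and no call with TN on the other lists held in every such fit. AHSA1, ZFAND2A, PFDN2, LONP1, DNAJB2, and BAG6 are named after their values were seen.

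The mRNAs of the heat shock factors did not pass the main test. HSF1 had a log2 fold change of 0.35 with OA (95% confidence interval -0.39 to 1.09, adjusted p = 0.548) and 0.17 with TN (-0.76 to 1.10, adjusted p = 0.837). HSF2, which can form trimers with HSF1, had -0.89 (-2.16 to 0.38, adjusted p = 0.369, and 0.0244 with the replicate block) and -0.32 (-1.24 to 0.60, adjusted p = 0.679). HSBP1, an inhibitor of HSF1 trimers, had -0.45 and -0.37 (adjusted p = 0.228 and 0.263). These are mRNA levels, and the activity of HSF1 was not measured.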

How the data were processed

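The deposited tables hold raw counts per gene, which the authors made by aligning reads to hg38 with STAR and counting them against a Gencode annotation, without normalization. The strand column kept is not given in the sources used here, and the library kit marks strand. The deposited results tables, with the authors' fold changes and p-values, were not used. Groups and replicate numbers came from the sample labels, and all 12 libraries were used.

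Genes were kept by filterByExpr and counts scaled by TMM. The test was edgeR's quasi-likelihood F test (edgeR 4.0.16, R 4.3.3), which is two-sided. Its p-values were adjusted over all tested genes after Benjamini and Hochberg, with a threshold of 0.05. OA and TN were each compared with their own DMSO libraries, without a replicate term, and with each other by a contrast over all 12 libraries. A gene called lower or higher passed this threshold. Shares and ratios were compared by exact permutation. The scripts were tested on simulated data. Library totals were 9884124 to 24983573 counts, and HSPA1A had at most 32 counts in any library. Counting error and replicate spread were not compared for single members. No 2 libraries of a group agreed within sampling noise, since chi-square per gene was at least 6.25.

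Since the labels number replicates alike in each group, the deviations of same-numbered libraries from their group means were compared. The correlations across genes were 0.74, 0.63, and 0.15 for OA and 0.72, 0.52, and 0.55 for TN. All exceeded 0.1. Libraries of different numbers were not correlated in this way, so the check cannot show that same-numbered libraries are pairs. Libraries of 1 number were read as paired from the numbering, and the pairing itself was not tested. The main test had no replicate term, as in the study's methods. Values with the replicate number as a block stand beside it where they change a member's call, and for DNAJB1 and BAG3. They also stand beside a printed value of another gene whose call they change, and as counts for each list. The values of 1 listed gene are not reported here.

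Named were all members, their ER and mitochondrial relatives, HSF1, HSF2, ACTB, and from each other list at most 3 genes with the lowest p in each comparison. Members and lists were chosen with earlier results of these data known, and no test over a list was run. Alternatives were DESeq2 1.42.0, other scalings (DESeq2 size factors, total counts, ACTB, TMM without 7SL, 7SK, and mitochondrial RNAs), no filter, a filter of 10 counts in each library, the replicate block, 1 fit of 12 libraries, and fits without each library. GC offsets, fits without both libraries of 1 number, and fits of the genes outside the members without each library were added after the data were seen.

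Gene coordinates came from the Gencode annotation of hg38 and promoters from RefSeq on GRCh38.p14, where motifs were matched as letters. GC content is that of the longest transcript.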

Additional observations from a re-analysis of the deposited data

How the results depend on the processing

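Over both comparisons, 399 of 402 log2 fold changes of single members under an alternative stayed below 0. The 3 above 0 came from scaling to ACTB, with 0.13 for DNAJB1 and 0.15 for BAG3 with OA and 0.048 for DNAJB1 with TN, none past the threshold. ACTB itself had -0.49 with OA (adjusted p = 0.256) and -0.35 with TN (adjusted p = 0.426). Scaling to ACTB moved the median of all genes to 0.42 with OA and 0.30 with TN and the median of the members to -0.86 and -0.96, and left the members 1.28 and 1.26 below all genes. Scaling to total counts moved the median of all genes to -0.23 and -0.18. Genes called higher made up 61.6% of calls with OA and 52.2% with TN, 47.1% and 37.7% with total counts, and 94.1% and 84.5% with ACTB.

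The number of calls moved more than the fold changes. With OA, 658 genes and 2 members were called, against 1633 and 7 with DESeq2, 1425 and 1 with ACTB, 1572 and 7 without a filter, and 1682 and 7 in 1 fit of 12 libraries. Total counts gave 748 genes and 3 members with OA, and the filter of 10 counts in each library gave 679 and 3. With TN, 1009 genes and 5 members were called, against 1719 genes and 7 members with DESeq2 and 1648 and 7 without a filter. In 1 fit of 12 libraries and with each other scaling, 4 members were called with TN, without HSPA4 and DNAJA1 and with HSP90AB1. With OA, scaling to ACTB ended the HSPA8 call (log2 fold change -0.985, adjusted p = 0.0608). With the replicate block, 3914 genes and 7 members were called with OA and 3915 and 9 with TN. Chosen after the data were seen, GC offsets gave 2406 genes and 7 members with OA and 3219 and 8 with TN, and with the replicate block as well 3792 and 8 with OA and 5402 and 10 with TN. Without both libraries numbered 1, the counts were 52 genes and 0 members with OA and 6267 and 9 with TN. Without both numbered 2, 797 genes and 7 members were called with OA, and 0 genes and 0 members with TN. Without both numbered 3, 0 genes and 0 members were called in either. The cause was not tested. Without single libraries, calls ranged from 3 to 1179 genes and 0 to 7 members with OA and from 151 to 2361 genes and 1 to 7 members with TN. OA minus TN called 0 genes, 25 without a filter, and 0 to 4 without single libraries, and no member in any of these fits.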

Other observations

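HSPD1, the larger subunit of the mitochondrial chaperonin, went from 1550 ± 221 to 565 ± 329 normalised CPM with OA (SD, n = 3 each, log2 fold change -1.46, adjusted p = 0.107, and 0.00467 with the replicate block) and fell by 1.29 with TN (SE 0.263, adjusted p = 0.0303). LONP1, a protease of the mitochondrial matrix, had log2 fold changes of 1.09 with OA and 0.81 with TN (adjusted p = 0.106 and 0.176, and 0.00344 and 0.0074 with the replicate block). FKBP5, an HSP90 cochaperone and a target of the glucocorticoid receptor, went from 49.3 ± 3.13 to 16.8 ± 4.25 normalised CPM with TN (adjusted p = 0.0134) and from 41.1 ± 2.77 to 16.4 ± 10.9 with OA (adjusted p = 0.183, and 0.019 with the replicate block).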
